A study of Mus musculus with 12 samples.

Results

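Interferon-stimulated and interferon regulatory genes were followed in alveolar macrophages of the mouse, the phagocytes that live in the air spaces of the lung, from naive lungs and from lungs of a transplant model. The set holds 51 genes, taken by symbol from the 43430 genes of the deposited expression table: 3 sensors of viral RNA, 4 interferon receptor chains, 8 transcription factors, 7 proteins of ISG15, ubiquitin and ADP-ribose conjugation, 11 effectors that act on RNA, 7 restriction factors, 7 GTPases of the GBP and IRG families and 4 other induced genes. All 51 were found in the table, and 33 were measured, meaning that they reached 1 RPKM, the reads of a gene divided by its length in kilobases and by the depth of the library, in at least 4 of the 12 libraries. The other 18 lay below that filter.

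Each of the 3 groups held 4 libraries of polyadenylated RNA: a naive control, and macrophages taken 2 h and 24 h after reperfusion, when blood flow to the graft is restored. Every library is labelled with the genotype Cx3cr1gfp/+B6, a reporter allele on a B6 background, and as a male mouse of 14 weeks. The titles of the reperfusion libraries carry the word Allo, with no explanation in the labels. The labels do not say whether each library is another animal. The p-values therefore rest on the spread among the libraries, and that spread may be technical.

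As background, type I interferons bind the receptor formed by Ifnar1 and Ifnar2, and interferon gamma binds the receptor formed by Ifngr1 and Ifngr2. Both receptors signal through Janus kinases to STAT proteins. Type I signalling assembles STAT proteins with Irf9 into a complex that binds interferon-stimulated response elements, and interferon gamma signalling drives STAT dimers to gamma-activated sites. The induced genes encode antiviral effectors, GTPases and the sensors and factors of the pathway itself, and alveolar macrophages are known as a source of type I interferon in the virus-infected lung.

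The library totals were 6112586 to 8796071 reads in naive, 7242824 to 10347265 at 2 h and 9129420 to 11997945 at 24 h. The 2 h libraries stood apart from their strain label. H2-Ea-ps, an MHC class II chain that C57BL/6 mice do not express, was at 19.3 to 27.1 RPKM in the 2 h libraries, at 0 to 0.184 in naive and at 1.48 to 5.2 at 24 h. Ifi202b, an interferon-induced gene, was at 1.71 to 2.2 RPKM at 2 h, was listed at 0 in the 4 naive libraries and reached at most 0.129 at 24 h. Gm8730, a predicted gene, was at 41.9 to 52.5 RPKM at 2 h, 0 to 1.07 in naive and 0.488 to 4.08 at 24 h. These 3 genes were chosen after their values were seen. Whatever separates the 2 h libraries here and the time after reperfusion cannot be told apart in any comparison with the 2 h group. H2-Ea-ps was also higher in every 24 h library than in any naive library, so what separates the libraries by this gene and the time cannot be told apart in 24 h against naive either. The 13 alveolar macrophage markers were above 1 RPKM in every library, but their levels were not steady. In the test described below, 2 were higher and 4 lower at 2 h against naive (14.7% and 22.0% of all tested genes). At 24 h against naive 2 were higher and 7 lower (25.3% and 20.6% of all). Marco rose from 94.9 ± 10.6 RPKM (SD, n = 4) in naive to 398 ± 25.8 at 24 h, and Siglecf fell from 58.3 ± 3.15 to 27.1 ± 7.27. Summed markers of other cells shifted with the groups: T and NK cell markers summed to 6.99 to 11.5 RPKM in naive, 2.03 to 5.41 at 2 h and 0.994 to 2.51 at 24 h.

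Promoters of classical members are shown because interferon acts on genes through short elements there. Promoters from RefSeq on GRCm38.p6 were found for 42 of the 51 genes, 52 promoters in all, and the 250 bases before each start were searched on both strands for the interferon-stimulated response element, taken as GAAA, any 2 bases and GAAA again, or its complement TTTC, any 2 bases and TTTC. A match was found in 15 of the 52 promoters (28.8%), against 978 of 32851 promoters of all genes (2.98%). The gamma-activated site, TTCNNNGAA, was found in 13 of 52 (25%), against 7.02% of all. Response elements were found in 10 of 29 measured members with a promoter and in 5 of 13 that were below the filter. A match is a run of letters and not a shown binding site. The stretches below hold the matches of 5 classical induced genes, of 3 GTPases and of Stat2, each 5′ to 3′ on the gene's strand, and capitals mark response element matches.
Ifit1 chr19:34640745-34640853 (+): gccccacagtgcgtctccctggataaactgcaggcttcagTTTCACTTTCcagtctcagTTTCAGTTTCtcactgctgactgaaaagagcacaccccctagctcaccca
Ifit3 chr19:34583333-34583456 (+): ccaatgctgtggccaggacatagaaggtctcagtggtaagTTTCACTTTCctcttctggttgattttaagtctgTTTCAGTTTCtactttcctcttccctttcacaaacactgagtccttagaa
Rsad2 chr12:26456523-26456612 (-): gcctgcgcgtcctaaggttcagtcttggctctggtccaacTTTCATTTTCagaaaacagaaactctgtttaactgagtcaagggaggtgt
Isg15 chr4:156200835-156200936 (-): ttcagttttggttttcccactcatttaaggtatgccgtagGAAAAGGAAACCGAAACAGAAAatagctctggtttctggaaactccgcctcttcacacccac
Oas1a chr5:120907526-120907585 (-): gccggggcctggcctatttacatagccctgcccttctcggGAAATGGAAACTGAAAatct
Igtp chr11:58199482-58199555 (+): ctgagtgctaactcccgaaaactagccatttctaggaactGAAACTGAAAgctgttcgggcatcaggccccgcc
Irgm2 chr11:58214873-58214962 (+): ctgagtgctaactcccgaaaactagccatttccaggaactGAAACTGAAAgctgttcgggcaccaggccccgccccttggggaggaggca
Gbp7 chr3:142530243-142530332 (+): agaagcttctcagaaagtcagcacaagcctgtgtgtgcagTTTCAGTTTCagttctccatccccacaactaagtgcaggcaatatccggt
Stat2 chr10:128270248-128270325 (+): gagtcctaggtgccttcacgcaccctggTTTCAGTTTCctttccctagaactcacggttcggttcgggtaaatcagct
The Isg15 stretch carries 3 overlapping matches and the Oas1a stretch 2, while Ifit1 and Ifit3 each carry 2 that are spaced apart. Igtp and Irgm2, neighbouring GTPase genes on chromosome 11, carry 1 match each in nearly the same surroundings, and each also has a gamma-activated site just upstream that does not overlap it.

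In naive macrophages the levels of the members ran from Ifngr1 at the top down to genes with a few reads or none. Levels of different genes are given per length, as RPKM over the union of annotated exons (exon-union RPKM), because the gene length behind the deposited RPKM was 0.336 to 4.47 times that union. The lowest ratio was that of Irf2, whose naive mean was 36.4 in deposited RPKM and 12.2 in exon-union RPKM. Where the deposited length is the shorter, the exon-union level may be too low. Ifngr1, the ligand-binding chain of the interferon gamma receptor, had the highest naive level at 79.8 ± 3.84 (SD, n = 4). Trim25, a ubiquitin ligase of the RNA sensing pathway, followed at 49.0 ± 4.12, and Samhd1, which hydrolyses deoxynucleotides, at 48.5 ± 1.82, the pair lying within their SDs of each other. Ifi27 stood at 32.9 ± 1.7, Bst2, the tetherin that holds budding virus on the membrane, at 27.9 ± 2.43, and Irf5 at 27.3 ± 2.56. Of the measured members 9 were above 20, the median was 10.4, and Isg15, the ubiquitin-like modifier, was the lowest at 1.96 ± 0.589.

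**Figure D1:**
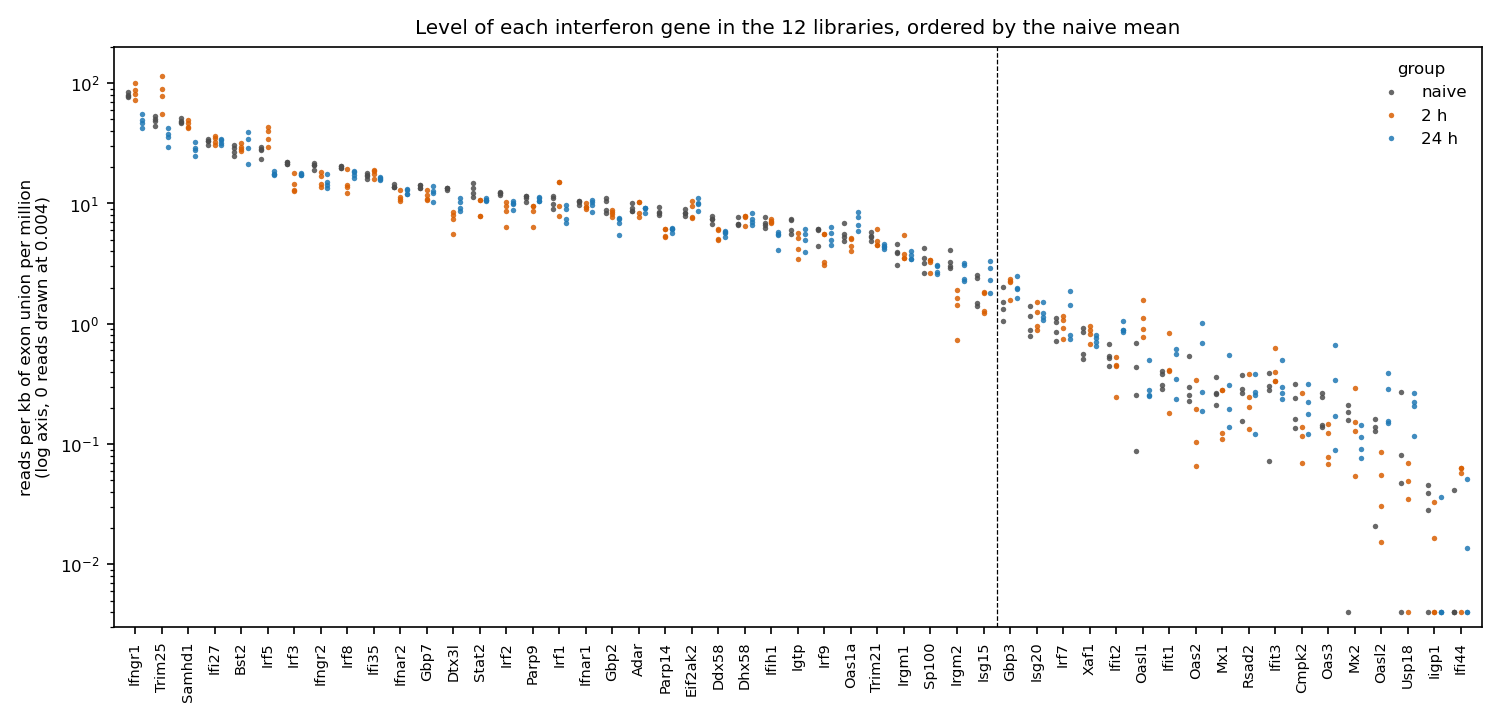
Level of each of the 51 genes in the 12 libraries, in exon-union RPKM on a log axis, a point for each library coloured by group (naive, 2 h, 24 h), with libraries without a read drawn at 0.004. Genes are ordered by naive mean, from Ifngr1 at 79.8 down, and the dashed line separates the 33 measured members from the 18 below the filter.

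The 18 members below the filter include many genes that are commonly read as an interferon signature. Ifit1, Ifit2, Ifit3, Mx1, Mx2, Oas2, Oas3, Oasl1, Oasl2, Rsad2, Cmpk2, Usp18, Irf7, Isg20, Ifi44, Xaf1, Gbp3 and Iigp1 had between 0 and 89 reads a library, and the highest level in any library was an exon-union RPKM of 2.52, for Gbp3. On that scale 12 of the 18 stayed under 1 in every library, and Irf7, Ifit2, Oas2, Oasl1, Isg20 and Gbp3 passed 1 in at least 1 library. The edge of the filter was close: Irgm2 entered with 9 libraries at 1 RPKM, while Ifit2, Ifit1 and Gbp3 stayed out with highest values of 0.921, 0.833 and 0.818 RPKM. A library with 0 reads of a gene allows up to 3, for counting error only. Ifit3 is 97.8% identical to Ifit3b over 1700 bases, and Mx1 is 94.8% identical to Mx2 over 920, so reads of these genes may have been split or lost and their low counts are uncertain. The annotation lists Mx2 as a polymorphic pseudogene, which also limits what its low count can mean.

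Ifit1, which binds foreign RNA lacking self marks, had 9, 6, 8 and 5 reads in naive replicates 1 to 4, 11, 5, 19 and 8 at 2 h and 11, 16, 6 and 15 at 24 h. Rsad2, the antiviral enzyme viperin, had 11, 13, 5 and 7 reads in naive, 9, 11, 5 and 12 at 2 h and 14, 12, 5 and 15 at 24 h. Usp18, which removes ISG15 and damps the type I receptor, had 2, 6, 1 and 0 reads in naive, 1, 2, 0 and 1 at 2 h and 7, 8, 6 and 3 at 24 h. The groups overlap for all 3 genes, apart from Usp18 between 2 h and 24 h, where every 24 h library was above every 2 h library at counts of 8 or fewer. Irf7, the amplifier of type I interferon production, had 24 to 31 reads in naive, 25 to 42 at 2 h and 27 to 85 at 24 h, with 2 of the 24 h libraries, replicates 1 and 2, at 85 and 59 and the other two at 27 and 28. The same 2 libraries were the highest at 24 h for Oas2, with 37 and 49 reads against 8 and 11, and for Oas3, with 29 and 51 reads against 6 and 11. Those libraries also had the largest totals at 24 h, 11997945 and 10837644 reads, and in RPKM, which takes the total into account, they were again the highest for these 3 genes.

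A further fit, chosen after seeing the data, took limma voom to the recovered reads of all 12892 genes with at least 10 reads in at least 4 libraries, which let in 44 of the 51 members. Oasl1, a relative of the oligoadenylate synthetases, had 2, 9, 5 and 11 reads in naive, 30, 21, 35 and 17 at 2 h and 8, 14, 7 and 6 at 24 h. All 2 h libraries lay above all others, a log2 change of 1.83 at 2 h against naive (adjusted p = 0.00479) and of -1.70 at 24 h against 2 h (adjusted p = 0.00242). Ifit2 had 18, 21, 13 and 13 reads in naive, 10, 18, 18 and 13 at 2 h and 42, 38, 32 and 38 at 24 h. All 24 h libraries lay above all others, a log2 change of 0.74 at 24 h against naive (adjusted p = 0.0156) and of 1.18 against 2 h (adjusted p = 0.000618). Oas2 was higher at 24 h than at 2 h in the same fit (log2 1.61, adjusted p = 0.0307), with groups that overlap. In that fit 3 of 44 members were higher and 13 lower at 2 h against naive, 1 higher and 14 lower at 24 h, and 9 higher and 8 lower at 24 h against 2 h. Over all genes of the fit the shares were 14.4% higher and 22.9% lower, 24.3% and 21.7%, and 31.5% and 22.9%. With no filter on RPKM, Oasl1 and Ifit2 passed in the same comparisons, and Usp18 (log2 0.32, adjusted p = 0.0351) and Oasl2 (log2 0.18, adjusted p = 0.0152) were higher at 24 h than at 2 h.

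**Figure D2:**
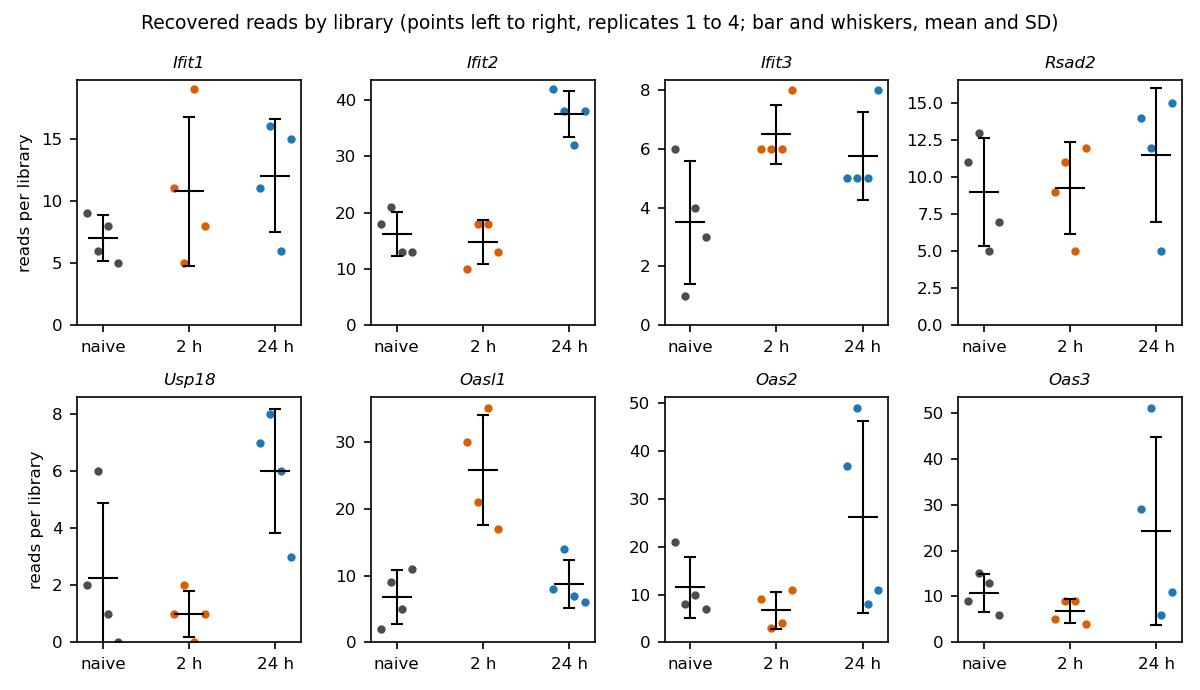
Recovered reads of 8 members below the filter in each library, points from left to right for replicates 1 to 4 of naive, 2 h and 24 h, with the mean and SD of 4 libraries. Ifit2 is higher in the 24 h libraries (32 to 42 reads) than in the others and Oasl1 in the 2 h libraries (17 to 35), while Ifit1, Ifit3 and Rsad2 overlap between naive and both times.

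Interferon genes had few or no counted reads in these libraries. Of 11 looked up, 9 were listed at 0 in every library, Ifnk had at most 5 reads and Ifng at most 1. Sequence shared with other genes was looked up for the members only, so reads of interferon genes may have been lost. A listed 0 therefore does not show absence, and interferon genes outside the 11 were not looked up. Interferon made by other cells of the lung is not measured here.

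Among the 33 measured members, falls outnumbered rises at both times after reperfusion. Changes are log2 differences of RPKM + 1 from limma with their standard errors, which understate the change of low genes, and adjusted p-values are Benjamini-Hochberg values over all 11419 genes tested. At 2 h against naive 2 members were higher and 13 lower (39.4%), beside 14.7% of all tested genes higher and 22.0% lower. The median change of the members was -0.19, against -0.04 for all genes. At 24 h against naive 1 member was higher and 12 lower (36.4%), beside 25.3% and 20.6% of all genes. At that time 28 of the 33 members had a negative change (84.8%), against 49.6% of all genes, and the median was -0.18 against 0.00. Both comparisons use the same 4 naive libraries. Fitted without the 2 h libraries, 24 h against naive gave 1 member higher, Eif2ak2 in place of Oas1a, and 16 lower.

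Between the reperfusion times the members split evenly. At 24 h against 2 h 6 members were higher and 5 lower, beside 30.9% and 21.5% of all genes, with a median of 0.04 against 0.05. The split turned with the scaling, to 6 higher and 8 lower with median-ratio scaling and to 4 and 9 with quantile normalisation. Counted without a test, groups did not overlap for 1 higher and 12 lower members at 2 h (14.0% and 20.5% of all genes), for 0 and 16 at 24 h (25.8% and 22.0%), and for 4 and 6 between the times (27.5% and 18.2%). On the scale of RPKM + 1, 1 of all calls reached a log2 change of 1 in size, that of Trim25 between the times. In the voom fit with 10 reads, which adds no 1 to the RPKM, Irgm2 also did, at -1.33 at 2 h and 1.04 between the times, and so did Irf5, at -1.04 between the times, beside the low members given above. In the limma fit on RPKM + 1, 11 members passed in none of the 3 comparisons. In bulk RNA, fewer cells of a type and less RNA a cell cannot be told apart.

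**Figure D3:**
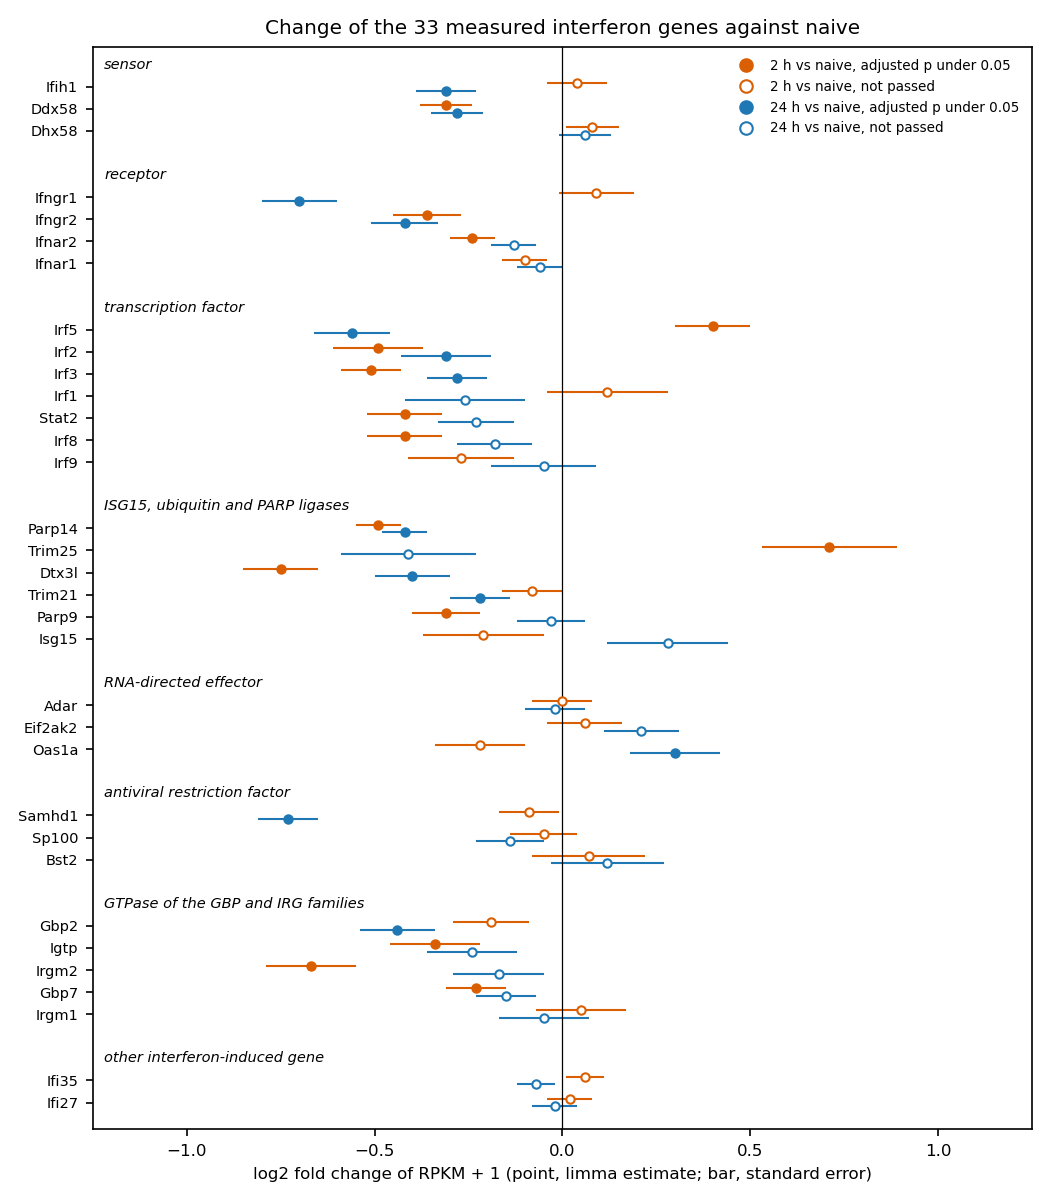
log2 change of RPKM + 1 against naive for the 33 measured members, grouped by role, at 2 h (orange) and 24 h (blue), with the limma estimate as a point and its standard error as a bar, filled where the adjusted p was under 0.05. Filled points lie left of 0 for 13 members at 2 h and 12 at 24 h, and right of it for Trim25 and Irf5 at 2 h and Oas1a at 24 h.

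Of the 3 cytosolic sensors of viral RNA, 1 fell at 2 h (22.0% of all tested genes fell) and 2 at 24 h (20.6% of all). Ddx58, the RIG-I sensor, was at 3.46, 2.95, 3.25 and 3.25 RPKM in naive, 2.22, 2.68, 2.17 and 2.62 at 2 h and 2.29, 2.48, 2.6 and 2.52 at 24 h. Every naive library was above every other library, and Ddx58 fell by 0.31 ± 0.07 (SE) at 2 h (adjusted p = 0.0042) and by 0.28 ± 0.07 at 24 h (adjusted p = 0.00438). Ifih1, the MDA5 sensor, was at 3.42, 4.2, 3.76 and 3.62 RPKM in naive, 3.75, 3.91, 3.82 and 4.05 at 2 h and 3.02, 2.24, 3.14 and 2.95 at 24 h. The 24 h libraries were the lowest, and Ifih1 fell by 0.31 ± 0.08 against naive (adjusted p = 0.0069) and by 0.35 ± 0.08 against 2 h (adjusted p = 0.00274). Dhx58, the LGP2 regulator of the other two, was at 3.58 to 4.59 RPKM over the 12 libraries and passed in no comparison.

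Of the 4 interferon receptor chains, 2 fell at 2 h (22.0% of all tested genes fell) and 2 at 24 h (20.6% of all). Ifngr2 fell at both times, Ifnar2 at 2 h and Ifngr1 at 24 h. Ifngr1 (ENSMUSG00000020009, chromosome 10, 19591949 to 19610229, plus strand) was at 45.8, 51.1, 46.7 and 48.3 RPKM in naive, 60.7, 49.3, 43.7 and 52.4 at 2 h and 28.2, 25.6, 30.0 and 33.3 at 24 h. All 24 h libraries were below all others, and Ifngr1 fell by 0.70 ± 0.10 against naive (adjusted p = 0.000122) and by 0.79 ± 0.10 against 2 h (adjusted p = 3.43e-05). Ifngr2, the signalling chain, was at 11.4, 12.5, 12.5 and 13.1 RPKM in naive, 8.13, 10.1, 10.8 and 8.67 at 2 h and 8.99, 10.6, 8.54 and 8.03 at 24 h. It was thus highest in the naive libraries, and it fell by 0.36 ± 0.09 at 2 h (adjusted p = 0.0105) and by 0.42 ± 0.09 at 24 h (adjusted p = 0.0034).

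Ifnar2, the high-affinity chain of the type I receptor, was at 5.79, 6.13, 5.76 and 5.77 RPKM in naive, 4.74, 5.43, 4.44 and 4.6 at 2 h and 5.57, 5.47, 5.04 and 5.08 at 24 h. It fell by 0.24 ± 0.06 at 2 h (adjusted p = 0.00727), and at 24 h its change of -0.13 did not pass (adjusted p = 0.0992) although no library overlapped naive. Ifnar1, its partner, was at 3.95 to 4.97 RPKM in the 12 libraries and passed in no comparison. Whether the receptors differ from each other in their change was not tested.

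Of 7 measured transcription factors 1 rose and 4 fell at 2 h (14.7% and 22.0% of all tested genes), and 0 rose and 3 fell at 24 h (25.3% and 20.6% of all). Irf5 (ENSMUSG00000029771, chromosome 6, 29526625 to 29541871, plus strand), which drives inflammatory cytokine genes downstream of Toll-like receptors, took opposite directions at the times. It was at 13.0, 10.9, 12.9 and 13.6 RPKM in naive, 16.0, 18.6, 19.8 and 13.6 at 2 h and 8.63, 8.09, 8.12 and 7.93 at 24 h. The 24 h libraries were tightly grouped below all others, and 3 of the 2 h libraries were above every naive library. Irf5 rose by 0.40 ± 0.10 at 2 h (adjusted p = 0.0105) and fell by 0.56 ± 0.10 at 24 h (adjusted p = 0.000842). From 2 h to 24 h it fell by 0.96 ± 0.10 (adjusted p = 1.1e-05).

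Irf3, the factor that switches on interferon beta after viral sensing, was at 6.62, 6.4, 6.63 and 6.41 RPKM in naive, 3.81, 3.83, 4.32 and 5.36 at 2 h and 5.38, 5.12, 5.1 and 5.2 at 24 h. The naive libraries were highest, and Irf3 fell by 0.51 ± 0.08 at 2 h (adjusted p = 0.00058) and by 0.28 ± 0.08 at 24 h (adjusted p = 0.0122). Its rise of 0.23 ± 0.08 from 2 h to 24 h (adjusted p = 0.0278) did not hold without 2 h replicate 1 or 2 or 24 h replicate 1 or 4, where the adjusted p was 0.0516 to 0.0807. That rise also did not pass with no filter, quantile normalisation or only the pair of groups compared. Irf3 shares exons with Bcl2l12, and whether reads were counted by strand is not given in the sources used here.

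Irf2, a competitor of Irf1 at response elements, was at 37.3, 36.3, 36.5 and 35.3 RPKM in naive, 19.1, 25.7, 28.2 and 30.8 at 2 h and 29.6, 26.2, 31.5 and 29.8 at 24 h. No later library reached the naive ones, and Irf2 fell by 0.49 ± 0.12 at 2 h (adjusted p = 0.00666). Its fall at 24 h of 0.31 ± 0.12 (adjusted p = 0.0486) sat at the threshold: it did not hold without any 1 of 10 libraries, the 4 naive, the 4 at 24 h and 2 h replicates 2 and 3, with an adjusted p of 0.0501 to 0.129. Nor did it pass with no filter, a pseudocount of 0.1, no variance trend or the replicate number as a block. Irf8, a factor of myeloid development, was at 13.1, 12.6, 13.2 and 12.7 RPKM in naive, 9.03, 8.85, 7.82 and 12.3 at 2 h and 11.8, 10.4, 11 and 11.7 at 24 h. It fell by 0.42 ± 0.10 at 2 h (adjusted p = 0.00745), with 3 libraries well below the fourth, and at 24 h its change of -0.18 did not pass (adjusted p = 0.16).

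Of the factors of the type I complex, Stat2 fell at 2 h and Irf9 passed in no comparison. Stat2, named here after its values were seen, was at 9.97, 9.05, 8.24 and 7.59 RPKM in naive, 5.28, 7.26, 7.2 and 5.36 at 2 h and 7.18, 7.27, 7.45 and 7.03 at 24 h. The naive libraries were highest, and it fell by 0.42 ± 0.10 at 2 h (adjusted p = 0.00779), with -0.23 at 24 h (adjusted p = 0.0858). Irf9 was at 1.28 to 2.64 RPKM and Irf1 at 2.43 to 5.34 over the 12 libraries, with groups that overlap, and neither passed in any comparison. Conventional dendritic cell markers, whose cells also use Irf8, summed to 2.84 to 3.64 RPKM in naive, 1.24 to 2.08 at 2 h and 1.48 to 2.44 at 24 h, with none of the 5 at 0 in every library, and their part in these falls was not tested.

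In the limma fit on RPKM + 1 the conjugation genes held the largest rise and the largest fall of the measured members at 2 h. The rank of the fall depends on the added 1: in the voom fit with 10 reads Irgm2, at -1.33, fell more than Dtx3l, at -0.87. Trim25 (ENSMUSG00000000275, chromosome 11, 88999376 to 89020293, plus strand) was at 23.0, 24.6, 20.1 and 22.0 RPKM in naive, 52.2, 35.6, 25.3 and 40.8 at 2 h and 17.4, 13.5, 16.4 and 19.4 at 24 h. All 2 h libraries were above all others but spread widely, and no 24 h library reached the naive ones. Trim25 rose by 0.71 ± 0.18 at 2 h (adjusted p = 0.00897) and fell by 1.12 ± 0.18 from 2 h to 24 h (adjusted p = 0.000243). At 24 h against naive its change was -0.41 ± 0.18 (adjusted p = 0.0786).

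Dtx3l, a ubiquitin ligase that works as a pair with Parp9, was at 9.66, 9.38, 9.61 and 9.64 RPKM in naive, 4.02, 6.1, 5.82 and 5.34 at 2 h and 8.0, 6.25, 7.36 and 6.59 at 24 h. The 3 groups did not overlap, and Dtx3l fell by 0.75 ± 0.10 at 2 h (adjusted p = 0.000241), was 0.40 ± 0.10 below naive at 24 h (adjusted p = 0.00704) and rose by 0.36 ± 0.10 between the times (adjusted p = 0.011). Parp9, its partner, was at 4.21, 4.79, 4.59 and 4.73 RPKM in naive, 2.63, 3.95, 3.58 and 3.94 at 2 h and 4.31, 4.63, 4.35 and 4.54 at 24 h. The 2 h libraries were lowest, and Parp9 fell by 0.31 ± 0.09 (adjusted p = 0.0167) and rose by 0.28 ± 0.09 from 2 h to 24 h (adjusted p = 0.0191). The rise did not pass with quantile normalisation (adjusted p = 0.0555). Dtx3l and Parp9 face each other on chromosome 16 and share 367 bases of exon, so part of their reads may be common.

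Parp14, an ADP-ribosyltransferase, was at 7.21, 6.2, 6.48 and 6.59 RPKM in naive, 4.06, 4.77, 4.15 and 4.74 at 2 h and 4.87, 4.36, 4.76 and 4.77 at 24 h. All naive libraries were above all others, and Parp14 fell by 0.49 ± 0.06 at 2 h (adjusted p = 0.000168) and by 0.42 ± 0.06 at 24 h (adjusted p = 0.000189). Trim21, a cytosolic antibody receptor and ubiquitin ligase, was at 3.31 to 3.93 RPKM in naive and 2.84 to 3.1 at 24 h. Its fall of 0.22 ± 0.08 at 24 h (adjusted p = 0.0326) did not hold without any 1 of naive or 24 h replicates 1 to 3, with an adjusted p of 0.0599 to 0.092. Isg15 was at 2.56, 1.5, 1.41 and 2.38 RPKM in naive, 1.8, 1.28, 1.23 and 1.83 at 2 h and 3.31, 2.32, 1.81 and 2.9 at 24 h. The groups overlap, and its rise of 0.49 ± 0.16 from 2 h to 24 h (adjusted p = 0.0251) did not hold without 2 h replicate 2 or 3 or 24 h replicate 1 or 4, with an adjusted p of 0.0634 to 0.0766. Neither of these calls of Trim21 and Isg15 passed with no filter on RPKM. Trim21 and Isg15 fall outside the rule for full statistics and are given after their values were seen.

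**Figure D4:**
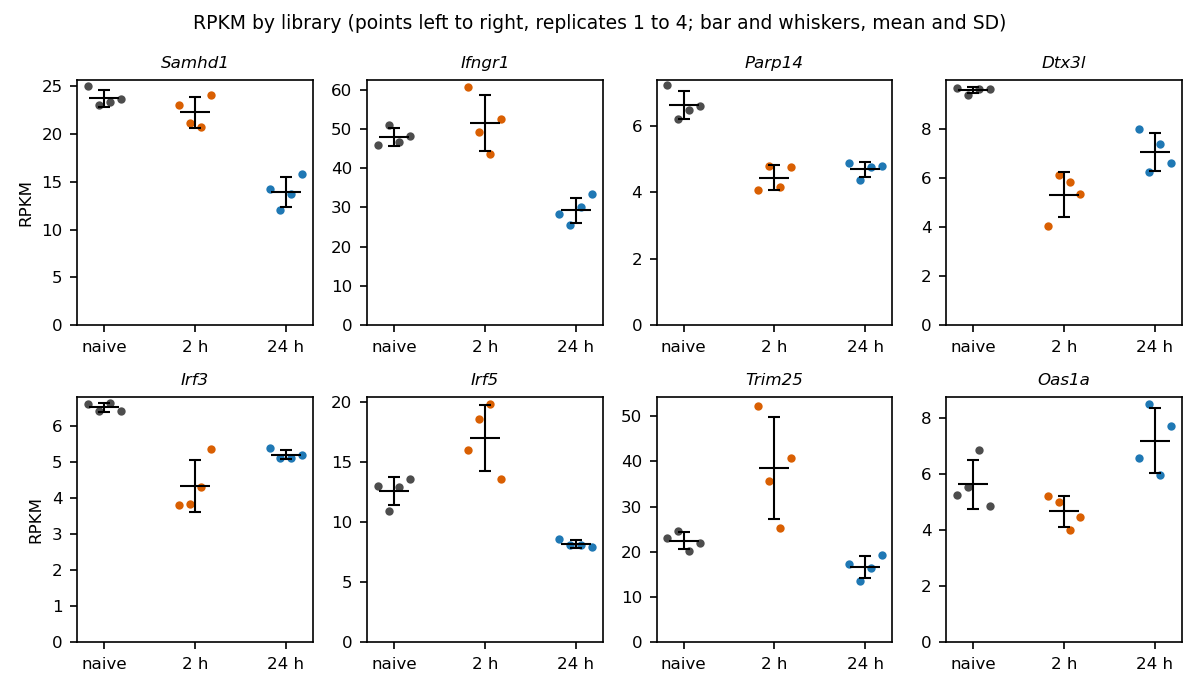
RPKM of 8 measured members in each library, points from left to right for replicates 1 to 4 of naive, 2 h and 24 h, with the mean and SD of 4 libraries and axes from 0. Samhd1, Ifngr1 and Irf5 are lowest in the 24 h libraries, Parp14, Dtx3l and Irf3 are highest in naive, Trim25 is highest at 2 h, and Oas1a has its 24 h libraries (5.96 to 8.52) above those at 2 h (4.01 to 5.21).

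Of the effectors that act on RNA, Oas1a (ENSMUSG00000052776, chromosome 5, 120896256 to 120907521, minus strand), an oligoadenylate synthetase, was the one measured member that passed as higher at 24 h against naive. It was at 5.25, 5.55, 6.88 and 4.86 RPKM in naive, 5.21, 5.02, 4.01 and 4.47 at 2 h and 6.59, 8.52, 5.96 and 7.73 at 24 h. Every 24 h library was above every 2 h library, while naive overlapped both. Oas1a rose by 0.52 ± 0.12 from 2 h to 24 h (adjusted p = 0.00253). Its rise of 0.30 ± 0.12 over naive (adjusted p = 0.0496) did not hold in 20 of 24 other settings, 9 of them the loss of 1 library: naive replicates 1, 2 and 4, 2 h replicates 1, 2 and 4 and 24 h replicates 1, 2 and 4, with an adjusted p of 0.052 to 0.144. Oas1g is 97.6% identical to Oas1a over 1861 bases, so reads of the pair may have been split or lost.

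The other measured effectors did not pass. Eif2ak2, the kinase PKR that halts translation on viral RNA, was at 6.44 to 7.42 RPKM in naive, 6.19 to 8.61 at 2 h and 7.06 to 9.09 at 24 h, with a change of 0.21 ± 0.10 at 24 h (adjusted p = 0.0963). Adar, which edits adenosine in double-stranded RNA, was at 2.85 to 3.82 RPKM over all libraries, with changes of 0.00 ± 0.08 at 2 h and -0.02 ± 0.08 at 24 h.

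The restriction factors were led by Samhd1 (ENSMUSG00000027639, chromosome 2, 157097533 to 157135265, minus strand), which had the largest fall at 24 h among the measured members. It was at 25.0, 23.0, 23.3 and 23.7 RPKM in naive, 23.0, 21.2, 20.7 and 24.1 at 2 h and 14.2, 12.0, 13.7 and 15.8 at 24 h. All 24 h libraries were well below all others. Samhd1 fell by 0.73 ± 0.08 against naive (adjusted p = 1.13e-05) and by 0.64 ± 0.08 against 2 h (adjusted p = 2.33e-05), with -0.09 at 2 h (adjusted p = 0.369). Bst2 was at 29.5 to 36.0 RPKM in naive, 32.3 to 37.9 at 2 h and 25.4 to 46.3 at 24 h and passed in no comparison, with the widest spread at 24 h. Sp100, a nuclear body protein, was at 1.03 to 1.71 RPKM over the libraries and did not pass either.

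Among the 5 measured GTPases, which act on the vacuoles of intracellular microbes, 3 fell at 2 h (22.0% of all tested genes fell) and 1 at 24 h (20.6% of all). Of the 3 falls, those of Igtp and Gbp7 depend on single libraries, as given with their values. Neither passed with no filter, median-ratio scaling or quantile normalisation, and Igtp did not with only the pair of groups compared. Gbp2 was at 6.24, 7.86, 6.58 and 8.35 RPKM in naive, 6.61, 6.05, 5.8 and 6.35 at 2 h and 5.54, 4.05, 5.64 and 5.1 at 24 h. The 24 h libraries were the lowest, and Gbp2 fell by 0.44 ± 0.10 against naive (adjusted p = 0.00374). Irgm2, named after its values were seen, was at 2.17, 1.62, 1.74 and 1.56 RPKM in naive, 0.393, 0.865, 1.01 and 0.757 at 2 h and 1.64, 1.27, 1.71 and 1.22 at 24 h. The 2 h libraries were lowest, and Irgm2 fell by 0.67 ± 0.12 at 2 h (adjusted p = 0.00162) and rose by 0.49 ± 0.12 from 2 h to 24 h (adjusted p = 0.00508). It passed the filter through the naive and 24 h libraries.

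Igtp, the neighbour of Irgm2 with the like promoter shown above, was at 2.61, 2.0, 2.69 and 2.15 RPKM in naive, 1.51, 1.24, 2.03 and 1.87 at 2 h and 2.19, 1.41, 2.0 and 1.77 at 24 h. Its groups overlap, and its fall of 0.34 ± 0.12 at 2 h (adjusted p = 0.0393) did not hold without any 1 of naive replicates 1, 3 and 4, 2 h replicates 1 and 2 and 24 h replicate 4, with an adjusted p of 0.05 to 0.112. The annotation gives Igtp and Irgm2 overlapping exons. Gbp7 was at 6.84, 6.83, 7.17 and 7.28 RPKM in naive, 5.92, 5.46, 5.52 and 6.59 at 2 h and 6.49, 5.25, 6.22 and 7.06 at 24 h. Its fall of 0.23 ± 0.08 at 2 h (adjusted p = 0.0388) did not hold without any 1 of the 4 naive libraries, 2 h replicates 1 to 3 and 24 h replicates 1 and 3, with an adjusted p of 0.0506 to 0.102. Irgm1, a regulator of the other IRG proteins, was at 2.44 to 4.37 RPKM and passed in no comparison.

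Ifi35 and Ifi27 changed little in this fit. Ifi35 was at 7.77 to 9.36 RPKM over the 12 libraries, with changes of 0.06 ± 0.05 at 2 h and -0.07 ± 0.05 at 24 h. Ifi27, a small mitochondrial protein gene, was at 6.8 to 8.07 RPKM, with changes of 0.02 ± 0.06 and -0.02 ± 0.06. Neither passed in any comparison, which does not show that they did not differ.

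Genes listed as markers of other cells moved beside the members, and not all markers of a list moved alike. Summed B cell markers were 5.47 to 9.45 RPKM in naive, 1.64 to 5.57 at 2 h and 0.81 to 2 at 24 h, and interstitial macrophage markers 6.09 to 10.3, 2.61 to 5.12 and 3.22 to 8.66. Markers of plasmacytoid dendritic cells, which are known for making much type I interferon, summed to 1.24 to 1.8 RPKM in naive, 0.923 to 1.77 at 2 h and 0.0834 to 1.05 at 24 h. That sum was mostly Cox6a2, at 1.29 ± 0.275 in naive, 0.76 ± 0.376 at 2 h and 0.166 ± 0.333 at 24 h, the one marker of the 5 that was tested. Siglech, Ccr9 and Pacsin1 had group means under 0.1, and Klk1 was listed at 0 in naive and at 0.329 ± 0.127 at 2 h. Neutrophil markers summed to 26.2 to 34.9 RPKM in naive and 41.7 to 47.7 at 24 h, a sum that followed S100a8 (10.2 ± 2.54 in naive and 29.8 ± 2.74 at 24 h), while Csf3r fell from 6.51 ± 0.841 to 2.01 ± 0.548, so that of the 4 tested 1 rose, 1 fell and 2 did not pass. Epithelial markers summed to 56 to 60.4 in naive and 22.9 to 33.2 at 24 h, where Epcam fell from 42.5 ± 2.25 to 12.2 ± 2.91 and the other two tested, Sftpc and Scgb1a1, did not pass. Of the neutrophil list, S100a9, Retnlg and Ly6g were below the filter, with group means of at most 0.699 RPKM. Of the epithelial list, Sftpb, Cldn18, Krt8 and Krt18 were below it too, with group means of at most 0.383 RPKM. Those 2 sums thus rest on a few genes, and whether the cells themselves shifted was not tested. None of these lists had a marker at 0 in every library. Lymphocytes, dendritic cells and neutrophils also express interferon receptors, GTPases and Samhd1, and their part in the changes of these members was not tested.

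Other genes of the pathway were looked up to set the members in context, 104 of 107 listed genes being in the table and 66 tested. At 2 h against naive 8 rose (12.1%) and 23 fell (34.8%), at 24 h 10 rose (15.2%) and 21 fell (31.8%), and from 2 h to 24 h 18 rose (27.3%) and 20 fell (30.3%). Over all tested genes the shares were 14.7% and 22.0%, 25.3% and 20.6%, and 30.9% and 21.5%, in that order. Upstream of the interferons, 10 of 12 genes were tested, with 1 higher and 3 lower at 2 h (14.7% and 22.0% of all genes) and 2 higher and 4 lower at 24 h (25.3% and 20.6%). Tbk1, the kinase that activates Irf3, rose from 26.9 ± 0.525 RPKM (SD, n = 4) in naive to 40.5 ± 2.93 at 2 h (log2 0.57 ± 0.06 SE, adjusted p = 3.63e-05) and was at 31.2 ± 1.73 at 24 h. Mavs, the adaptor of Ddx58 and Ifih1, fell from 17.1 ± 1.72 to 11.5 ± 1.79 at 2 h (log2 -0.54 ± 0.12, adjusted p = 0.00411). Tmem173, the STING adaptor of DNA sensing, fell from 25.5 ± 2.28 to 18.9 ± 2.19 at 2 h and 18.8 ± 2.29 at 24 h. Mb21d1, the DNA sensor cGAS, rose from 2.02 ± 0.196 to 4.65 ± 0.288 at 24 h (log2 0.91 ± 0.16, adjusted p = 0.000776). Tlr7, a receptor for viral RNA in endosomes, fell from 15.4 ± 1.13 to 8.08 ± 1.21 at 24 h (log2 -0.86 ± 0.11, adjusted p = 6.18e-05). Ticam1, the adaptor of Tlr3, fell from 8.05 ± 0.673 to 5.78 ± 0.833 at 24 h (log2 -0.42 ± 0.09, adjusted p = 0.00283).

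Below the receptors 12 of 13 genes were tested, with 3 higher and 5 lower at 2 h (14.7% and 22.0% of all genes) and 1 higher and 4 lower at 24 h (25.3% and 20.6%). Ptpn1, a phosphatase of Janus kinases, rose from 29.4 ± 1.97 RPKM to 64.7 ± 17.7 at 2 h (log2 1.07 ± 0.16, adjusted p = 0.000432). Tyk2, a Janus kinase of the type I receptor, fell from 34.4 ± 2.65 to 24.1 ± 3.12 at 2 h and 24 ± 1.76 at 24 h, by 0.50 ± 0.09 at each (adjusted p = 0.00134 and 0.00072). Ptpn11, another phosphatase, rose from 5.64 ± 0.118 to 6.48 ± 0.294 at 24 h (log2 0.17 ± 0.05, adjusted p = 0.0106). Socs1, a feedback inhibitor of Janus kinases, fell from 2.15 ± 0.91 at 2 h to 0.801 ± 0.335 at 24 h (log2 -0.77 ± 0.22, adjusted p = 0.0128). The groups overlap, with 2 h replicate 4 at 0.792 RPKM and 24 h replicate 1 at 1.16, and the 24 h libraries had 4 to 17 reads. Socs1 passed the filter with 8 libraries, of which 24 h replicate 1 was the only one at 24 h. Jak2, which serves the interferon gamma receptor, fell from 7.81 ± 0.193 to 6.28 ± 0.474 at 24 h (log2 -0.28 ± 0.06, adjusted p = 0.00428).

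Of 44 other induced genes tested 4 rose and 15 fell at 2 h (14.7% and 22.0% of all genes), 7 rose and 13 fell at 24 h (25.3% and 20.6%), and 14 rose and 11 fell between the times, shares near the 30.9% and 21.5% of all genes. Slfn9, a member of the Schlafen family, rose from 1.87 ± 0.173 RPKM in naive to 7.53 ± 0.533 at 24 h, after 0.897 ± 0.262 at 2 h (log2 1.57 ± 0.09 at 24 h, adjusted p = 1.4e-07). Trim30d fell from 5.23 ± 0.398 to 1.98 ± 0.173 at 2 h (log2 -1.07 ± 0.07, adjusted p = 1.9e-06) and was at 3.76 ± 0.287 at 24 h. B2m, the light chain of MHC class I, fell from 1372 ± 97.5 to 1201 ± 35.6 at 2 h and 944 ± 22.3 at 24 h (log2 -0.54 ± 0.05 at 24 h, adjusted p = 3.66e-06). Pnpt1, a mitochondrial RNA exonuclease, rose from 8.32 ± 0.504 in naive to 10.9 ± 0.499 at 24 h after 5.9 ± 0.736 at 2 h. Epsti1 rose from 3.35 ± 0.402 to 5.06 ± 0.398 at 24 h (log2 0.48 ± 0.08, adjusted p = 0.000297), and Trim34a fell from 2.02 ± 0.287 to 0.858 ± 0.169 at 2 h (log2 -0.70 ± 0.09, adjusted p = 0.000228). Ifi202b, described above, is counted among the 4 that rose at 2 h. It passed the filter through its 4 libraries at 2 h alone, so its call was fixed by the filter and supports nothing.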

How the data were processed

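RNA of alveolar macrophages was sequenced in 12 libraries, 4 in each of the naive, 2 h and 24 h groups. The authors deposited RPKM values per Ensembl gene; bcl2fastq, TopHat2, HTSeq and build mm10 come per the submitters' processing notes, and versions, annotation, strandedness and gene length were not given in the sources used here. Libraries were grouped by their time point label. The members, the pathway and marker lists and the tests were chosen with earlier results of these data known.

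Whole reads were recovered from the deposited RPKM, whose values step by single reads, within 0.02 of a read for 11417 of 11419 tested genes, giving 98.7 to 98.9% of each library total. A level resting on 3 reads over 1 kb is 0.25 to 0.491 RPKM, depending on the library, for counting error only. The authors' gene length equalled the summed length of all transcripts in 55.4% of 11328 tested genes with a gene model and the exon union in 15.3%, so genes with many transcripts have a low RPKM. Levels between genes therefore use the exon union of GENCODE annotation, to which 42462 of 43430 genes matched.

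Genes with at least 1 RPKM in at least 4 libraries were tested with limma 3.58.1 in R 4.3.3 on log2(RPKM + 1), over all 12 libraries with a variance trend, two-sided, with Benjamini-Hochberg adjustment over 11419 genes for each of 3 comparisons and a threshold of 0.05. Other settings, 24 in all, were no filter or one at 5 RPKM, pseudocounts of 0.1 and 0.5, quantile normalisation, median-ratio scaling, equal totals, no variance trend, a block for the replicate number, only the pair of groups compared, limma voom on recovered reads, voom with a filter of 10 reads (chosen after seeing the data), and each library left out. Full statistics are given for up to 4 members a role with the smallest p and a mean of at least 2 RPKM in some group and for up to 3 genes with the smallest p of each pathway sublist and comparison. One gene that this rule names is not reported here.

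Data were simulated for 24 h against naive with 10951 genes. Of genes changed 1.5-fold 79.1% of 67 were called, of those changed 2-fold 92.5% of 67 and of those changed 4-fold 95.5% of 66. There were 8 false calls. These rates describe the simulated data only, where few genes changed. In the libraries 25.3% of tested genes were called higher and 20.6% lower at 24 h. Changes under 1.5-fold were not simulated, and some member calls were smaller, such as Oas1a at 1.28 times its naive mean. The rates therefore do not give the power or the false calls of the test on these libraries. Shared sequence was found with BLAST 2.17.0, at 90% identity over 200 bases or more, in annotated transcripts. Exons of 20 members, 17 of them measured, overlap those of another gene.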

Additional observations from a re-analysis of the deposited data

Results flagged for a closer look

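Single libraries stood apart for 6 members, of 99 groups of 4 libraries looked at, and chance gives about 1 in 20. Dhx58 was at 3.58 RPKM in 2 h replicate 1, against 4.32 to 4.38 in the other 2 h libraries. Ifnar1 was at 4.58 in naive replicate 2, against 4.84 to 4.89, and Ifnar2 in the same library at 6.13, against 5.76 to 5.79. Irf9 was at 1.83 in naive replicate 4, against 2.51 in each of the others. Adar was at 3.09 in 24 h replicate 4, against 3.37 to 3.42, and Irgm1 at 4.37 in 2 h replicate 3, against 2.8 to 3.01. Irf5 rose at 2 h and fell at 24 h against the same naive libraries, and the test of the difference between the times gave -0.96 on the log2 scale.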

How the results depend on the processing

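No member reversed its direction after a call in any of the 24 other settings. The calls held in every setting that tested the gene for 13 of 15 members at 2 h, 10 of 13 at 24 h and 8 of 11 between the times. The count of members higher at 24 h against naive, 1 in the report, was 0 with no variance trend, pseudocounts of 0.1 and 0.5, quantile normalisation, median-ratio scaling, voom on recovered reads and equal totals (TPM). Members higher at 24 h against 2 h, 6 in the report, were 3 with the filter at 5 RPKM, which tests 19 members. Members lower in that comparison, 5 in the report, were 8 with median-ratio scaling, 9 with quantile normalisation and 8 with voom and the filter of 10 reads, which tests 44; for the scalings the cause was not tested. Leaving out each library gave 2 to 2 higher and 11 to 13 lower at 2 h, 0 to 1 higher and 10 to 13 lower at 24 h, and 4 to 7 higher and 5 to 6 lower between the times. Libraries with the same replicate number did not deviate together (12 correlations from -0.0426 to 0.0548), and with the replicate number as a block 2 members were higher and 14 lower at 2 h, 1 and 12 at 24 h and 6 and 5 between the times. In that block fit Oas1a and Irf2 lost their calls at 24 h against naive, so the members counted there are not all the same. Reads limit what can be said of the 18 members below the filter, which had at most 89 reads in a library.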
